A study of Ovis aries with 32 samples.

Results

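The 200 genes described here had the highest liver level relative to muscle among 27054 sheep genes in RNA sequencing of both tissues from 16 lambs. They were chosen by the ratio of mean CPM (counts on the gene per 1000000 counts on all genes) in the 16 liver libraries to the mean in the 16 muscle libraries, on the log2 scale with 1 CPM added to each mean. The 37 identifiers from ENSOARG00000000001 to ENSOARG00000000037 were left out of the choice. Liver against muscle chose these genes, so their difference between the tissues is given as a description and was not tested. The files name genes by Ensembl identifiers without symbols, so identifiers are used here, and neither the functions of the members nor the labelled tissues could be checked against known markers.

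The lambs were Appenninica × Sarda crossbreds, with ages of 154 to 190 days in the labels, which do not say at what point of the trial. The 8 lambs of the control group (CTRL) received alfalfa hay and concentrate with the carrier β-cyclodextrin, and were aged 154 to 190 days. The 8 lambs of the essential oil group (EO) received the same feed with the carrier holding equal parts of cinnamon bark, eucalyptus leaf and dill seed oils, and were aged 165 to 190 days. The study asked how this diet changes gene expression in both tissues. The labels do not give the sex of single lambs, so males and females were pooled.

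Hepatocytes, the main cell type of the liver, make most proteins of the blood plasma, such as albumin, apolipoproteins, clotting factors and complement. They also hold the urea cycle, bile acid synthesis and much of the enzyme set that modifies drugs and plant compounds, including those of essential oils. Skeletal muscle fibres make almost none of these transcripts, and their own most abundant transcripts encode the contractile apparatus and energy metabolism. Both tissues also hold blood, vessels and connective tissue. In bulk RNA, fewer cells of a type and less RNA per cell cannot be told apart.

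Some libraries stood apart before any comparison. Counts on genes ranged from 1460920 to 6689488 in liver and from 2572638 to 14035050 in muscle. The share outside genes, which is HTSeq's counter for uniquely aligned fragments on no gene as a percent of all uniquely aligned fragments, ranged from 23.6% to 48.6% in liver and from 27.2% to 30.5% in muscle. It was over 40% in 5 liver libraries, those of CTRL lambs 2, 3 and 8 and EO lambs 14 and 16. In muscle, the libraries of CTRL lambs 3, 5 and 7 had a higher level of the highest liver gene than the other 13, and that of CTRL lamb 5 also had 0 non-unique alignments recorded by HTSeq, beside 30.7% to 41.6% of all that HTSeq recorded in the other 15. Results that rest on these libraries are given with and without them.

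All 200 genes were counted in every liver library, with at least 17 counts in each, and all 200 had at least 1 CPM in all 16. Their mean liver level ranged from 129 to 121179 CPM, with a median of 651 CPM and quartiles of 280 and 1658 CPM. The median over the 11570 genes kept in liver, those with at least 1 CPM in 9 or more libraries, was 11.9 CPM. The members were therefore far up the list of liver transcripts, with 72 over 1000 CPM and 8 over 10000 CPM. Of the 10 highest genes in liver, 8 were members and the other 2 were among the identifiers left out by the rule. Members made up 17 of the 20 highest genes, 66 of the 100 highest and 107 of the 200 highest.

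ENSOARG00000013782 had the highest level and also the highest ratio. Its liver level was 75861 CPM in the lowest lamb, 113272 CPM at the median and 162927 CPM in the highest, with a mean of 121179 ± 30948 CPM (SD, n = 16). No other gene of the set came close, since ENSOARG00000003744 followed with a mean of 32780 ± 13149 CPM and ENSOARG00000000291 with 32774 ± 10354 CPM (SD, n = 16 each). These means differed by less than the spread between lambs. ENSOARG00000016733 had 26182 ± 6454 CPM and ENSOARG00000016664 had 25291 ± 7383 CPM (SD, n = 16 each), and these also lay within each other's spread. CPM are not divided by transcript length, so this order is of counts and not of molecules.

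**Figure D1:**
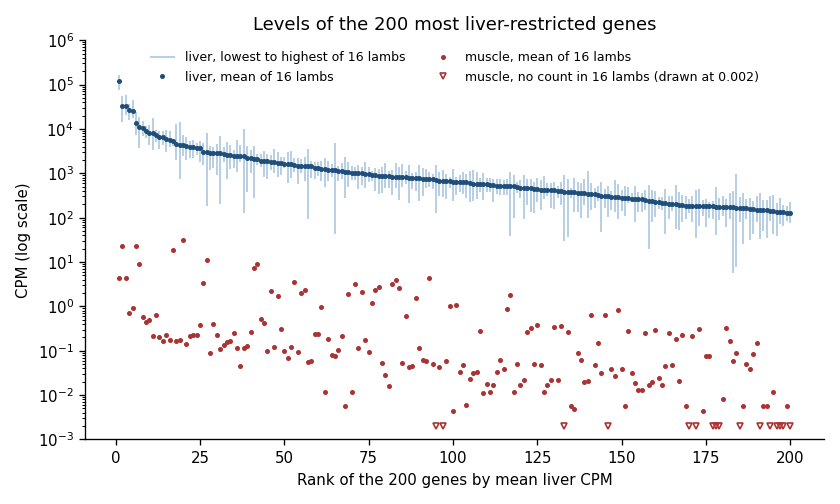
CPM on a log scale for the 200 genes, ordered by mean liver level. Blue points are means over 16 liver libraries, with lines from the lowest to the highest lamb, and red points are means over 16 muscle libraries. The liver means fall from 121179 to 129 CPM, and open triangles mark the 16 genes without a count in any muscle library.

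The ratio that chose the members ran from 14.47 on the log2 scale for ENSOARG00000013782 to 7.03 for ENSOARG00000011462 at rank 200. The 3 members just inside the threshold had values of 7.05, 7.03 and 7.03, and the 3 genes just outside had 7.02, 6.97 and 6.96. The edge of the set is thus not a gap. The gene at rank 199 had 129 CPM in liver and no count in muscle, whereas the gene at rank 203 had 1579 CPM in liver and 11.7 CPM in muscle, so that genes on either side of the threshold differed more in level than in ratio.

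The 200 genes took 50.9% ± 3.6 of the counts on genes in liver (SD, n = 16). The lowest lamb had 44.3%, the median was 52.3% and the highest lamb had 55.0%. The 95% binomial interval of each library was at most 0.081 points to either side, which covers counting error only, so the differences between lambs were larger than counting error. The share was 51.1% ± 3.3 in CTRL and 50.8% ± 4.1 in EO (SD, n = 8 each). The groups overlapped over almost their whole range, from 45.6% to 54.6% in CTRL and from 44.3% to 55.0% in EO. In muscle, the same 200 genes took 0.0214% ± 0.0067 of the counts (SD, n = 16). The 200 genes at the other end of the same ratio, the most muscle-restricted, took 43.7% ± 2.1 of the muscle counts and 0.0549% ± 0.0082 of the liver counts (SD, n = 16 each).

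Much of the liver share lay on few genes. The highest gene alone took 12.1% ± 3.1 of the counts, from 7.59% to 16.3%. The 10 highest members together took 29.1% ± 3.3, and the 50 highest took 42.7% ± 3.2 (SD, n = 16 each). The 199 members without the highest gene ranged from 34.0% to 43.7%.

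The share on the 200 genes was lower in the liver libraries with a high share outside genes. It was 44.3% to 49.7% in the 5 libraries over 40% outside genes and 49.9% to 55.0% in the other 11, without overlap. The highest gene took 7.59% to 10.3% in those 5 libraries and 9.85% to 16.3% in the other 11. The remaining 199 members overlapped between these libraries, with 34.0% to 42.1% in the 5 and 36.0% to 43.7% in the 11. The 37 identifiers left out of the choice took 5.71% to 12.5% of the counts on genes in the 5 libraries and 1.31% to 4.43% in the 11. Alignments that were not unique made up 40.6% to 56.4% of all that HTSeq recorded in the 5 libraries and 23.9% to 37.9% in the 11. The part of these measures in the lower share of the members was not tested.

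**Figure D2:**
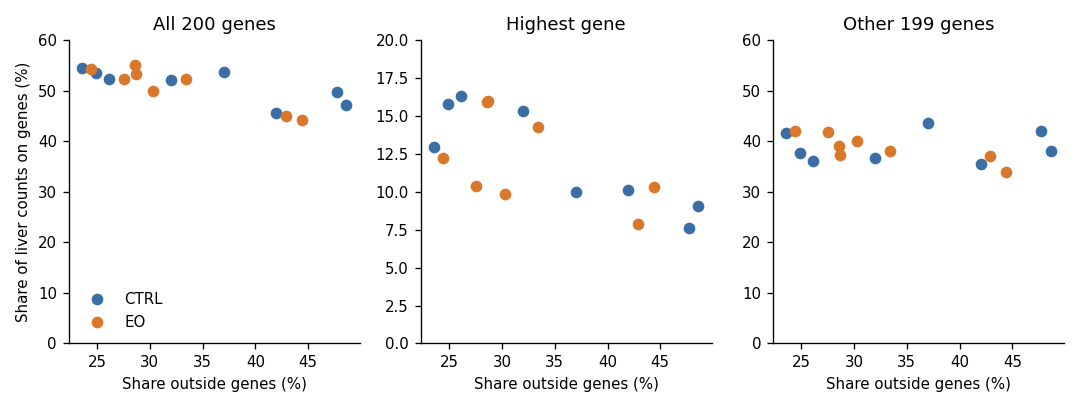
Percent of counts on genes taken by all 200 genes, by the highest gene ENSOARG00000013782 and by the other 199, against the share outside genes, for 16 liver libraries. Each point is 1 lamb and the y axes start at 0. All 200 genes take 44.3% to 49.7% in the 5 libraries over 40% outside genes and 49.9% to 55.0% in the others, in both diets.

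Of the 200 members, 119 followed the share outside genes in liver at the threshold of 0.05 on the adjusted p-value (quasi-likelihood test of edgeR on the share as a number, Benjamini-Hochberg adjustment over 11570 genes, n = 16). Of these, 45 rose and 74 fell as the share increased, and 81 did not pass the test. The background was high, since 30.9% of all genes tested rose and 31.9% fell. Of the members, 22.5% rose and 37% fell, and the difference from other genes was not tested. The median slope over the members was -0.0108 on the log2 scale per point of share, beside -0.00075 over all genes tested. With library size alone as the scaling in place of TMM, 35 members rose and 87 fell, beside 25.8% and 36.0% of all genes, and the median slopes were -0.0177 over the members and -0.00785 over all genes.

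The rising members had slopes of 0.16 to 1.18 on the log2 scale per 10 points of share, with a median of 0.45. ENSOARG00000004877 had the smallest adjusted p-value among them. Its liver level was 64.1 CPM in the lowest lamb, 131 CPM at the median and 446 CPM in the highest, and the 5 highest lambs were the 5 with over 40% outside genes. Its slope was 1.18 ± 0.06 (SE) per 10 points, with an adjusted p-value of 2.58e-11 by edgeR. ENSOARG00000004189 ranged from 263 to 1065 CPM with a median of 435 CPM, and its slope was 0.83 ± 0.07 (SE), with an adjusted p-value of 1.72e-09 by edgeR.

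The falling members had steeper slopes, of 0.22 to 2.00 in size per 10 points of share, with a median of 0.61. In 17 of them the fall was over 1 per 10 points, which is 8.50% of the members beside 5.83% of all genes tested, whereas 1 member rose by that much, which is 0.50% of the members beside 2.14% of all genes tested. ENSOARG00000006735 had 20.03 CPM in the lowest lamb, 244 CPM at the median and 549 CPM in the highest. Its slope was -1.79 ± 0.13 (SE) per 10 points, with an adjusted p-value of 8.82e-10 by edgeR. ENSOARG00000010176 ranged from 26.1 to 360 CPM with a median of 196.7 CPM, and its slope was -1.40 ± 0.10 (SE), with an adjusted p-value of 9.08e-10 by edgeR. In both genes, the 5 lambs with over 40% outside genes had the lowest liver levels. ENSOARG00000000751, one of the most variable members, had the steepest fall among them, of 2.00 ± 0.22 (SE) per 10 points.

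The calls were spread over all levels. Among the 50 members with the lowest mean liver CPM 13 rose and 24 fell, and among the 50 with the highest 14 rose and 18 fell. Of the 10 highest members, 1 rose and 3 fell. The rising one, ENSOARG00000005384, ranged from 7174 to 23600 CPM and had a slope of 0.69 ± 0.09 (SE). ENSOARG00000008456 ranged from 3734 to 19026 CPM and fell by 0.82 per 10 points (SE 0.11). The highest gene, ENSOARG00000013782, fell by 0.26 per 10 points (SE 0.10), with an adjusted p-value of 0.0214 by edgeR. This call was lost with a slope of about the same size in CTRL lambs alone (-0.28, adjusted p-value 0.0652), in EO lambs alone (-0.25, 0.337) and without a filter on low counts (-0.28, 0.106). Without the 5 libraries over 40% the slope itself was smaller (-0.10, adjusted p-value 0.810). Falling members together held 20.9% of the liver counts, rising members 8.21% and the members without a call 21.8%.

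**Figure D3:**
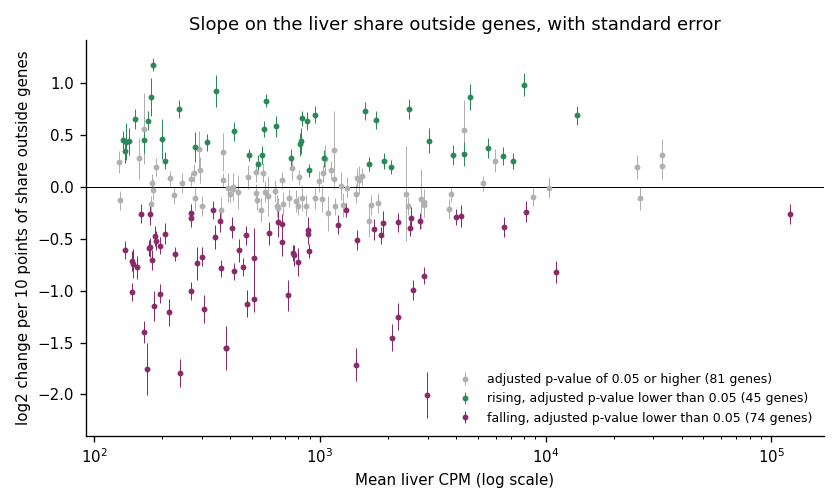
Slope of each member on the liver share outside genes, as log2 change per 10 points, against mean liver CPM on a log scale. Points are genes, bars are standard errors from edgeR over 16 libraries, and colours mark the 45 rising, the 74 falling and the 81 members without a call. The falls reach 2.00 per 10 points and the rises 1.18.

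The slopes were also fitted in each diet. In CTRL lambs alone 62 members fell and 34 rose, beside 26.5% and 25% of all genes tested. In EO lambs alone 64 fell and 29 rose, beside 19.6% and 19.5% of all genes. Of these, 53 falling and 24 rising members were called in both, and 0 had opposite signs. The same overlap over all genes is not given here, so it is not read as particular to the members. The difference between the slopes of the diets, a test added after seeing the data, passed the test for 0 of 200 members and 0.0% of the 11570 genes (edgeR, interaction of share and diet), with 14 members at an unadjusted p-value lower than 0.05, beside 7.6% of all genes. Without the 5 libraries over 40% outside genes, 34 members fell and 25 rose (n = 11), beside 14.9% and 13.8% of all genes. Of these, 34 and 23 were also called over all 16 libraries in the same direction, and 0 changed sign. The 11 libraries are part of the 16, so this agreement is in part built in. The median slope of the members over these 11 libraries was 0.0057 per point, so its sign rested on the 5 libraries.

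In liver, 26 members had all 5 libraries over 40% outside genes below the other 11 in CPM, and 8 had all 5 above. Over the 11570 genes kept, these were 6.86% and 7.21%.

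The spread between lambs differed widely between members. The coefficient of variation (CV) of liver CPM over the 16 lambs was 33.4% at the median, with quartiles of 24.3% and 44.2%. Over all genes kept it was 39.0% at the median, with quartiles of 28.0% and 52.7%. A CV over 50% was found in 38 members, or 19.0%, beside 29.3% of all genes kept, and a CV under 20% in 21 members, or 10.5%, beside 8.28%. The genes kept are mostly of lower counts, which adds counting error to their CV. The biological CV estimated by edgeR, from which counting error is removed, was 34.8% at the median over members and 34.5% over all genes when diet was the only term. With the share outside genes as the term in place of diet, it was 23.6% over members and 20.6% over all genes. It was lower than with diet in 199 of the 200 members. The common value that edgeR fits to all genes also fell, from 39.4% to 23.6%, and values of single genes are drawn towards those of all genes. The fall is therefore not particular to the members.

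The steadiest member was ENSOARG00000002951, with a CV of 10.0%. Its liver level was 4071 CPM in the lowest lamb, 5327 CPM at the median and 5987 CPM in the highest. ENSOARG00000019925 followed with a CV of 13.2%, from 673 to 1154 CPM. For the first of these genes the slope on the share outside genes was 0.03 ± 0.07 (SE) per 10 points, and its adjusted p-value by edgeR was 0.710.

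The 5 most variable members had CVs from 86.2% to 139%. ENSOARG00000014451 had 7.77 CPM in the lowest lamb, 90.6 CPM at the median and 956 CPM in the highest, and CTRL lamb 8 was far above all others. ENSOARG00000000751 ranged from 182 to 7926 CPM with a median of 2375 CPM. Its 4 lowest values, all under 210 CPM, were those of lambs 2, 3, 8 and 16, which are among the 5 with over 40% outside genes, while the fifth of these, lamb 14, had 1086 CPM. Lamb 6, with 37.04% outside genes, had 292 CPM.

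The other three most variable members varied together. ENSOARG00000006050 ranged from 42.2 to 4736 CPM with a median of 672 CPM, ENSOARG00000009847 from 128 to 9940 CPM with a median of 1515 CPM, and ENSOARG00000009865 from 750 to 14123 CPM with a median of 3335 CPM. Lambs 1, 2, 6, 10, 11, 15 and 16 lay above the median in all of them. On log2(CPM + 1), ENSOARG00000009847 and ENSOARG00000009865 had r = 0.81 and rho = 0.83 over 16 lambs (permutation test, p = 0.00036 and p = 0.00013). Adjusted over the 10 pairs of the 5 genes, these p-values were 0.0036 and 0.0013. Without the 2 lambs farthest from the median r was 0.76, and within diets it was 0.84 in CTRL and 0.82 in EO (exact permutation test, n = 8 each, p = 0.0117 and p = 0.0141). ENSOARG00000006050 had r = 0.66 and rho = 0.79 with ENSOARG00000009865 (permutation test, adjusted p = 0.0251 and p = 0.00175), and r = 0.88 without the 2 farthest lambs. Within diets this r was 0.64 in CTRL and 0.74 in EO.

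The third of these pairs, ENSOARG00000006050 with ENSOARG00000009847, had r = 0.64 and rho = 0.69 (permutation test, adjusted p = 0.0251 and p = 0.0129), and r = 0.68 without the 2 farthest lambs. Within diets r was 0.74 in CTRL and 0.59 in EO, and none of the 3 pairs passed the adjustment over 10 pairs within a diet. ENSOARG00000006050 and ENSOARG00000014451 varied in opposite directions, with r = -0.60 and rho = -0.63 (permutation test, adjusted p = 0.0353 and p = 0.026), and r = -0.67 without the 2 farthest lambs. Within diets this pair had r = -0.56 and rho = -0.55 in CTRL, and r = -0.85 and rho = -0.33 in EO, and it did not pass the adjustment in either. The other 6 pairs did not pass the test. For the 3 genes that varied together, the slopes on the share outside genes had adjusted p-values of 0.425, 0.909 and 0.0937 by edgeR, in the order in which their ranges are given.

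**Figure D4:**
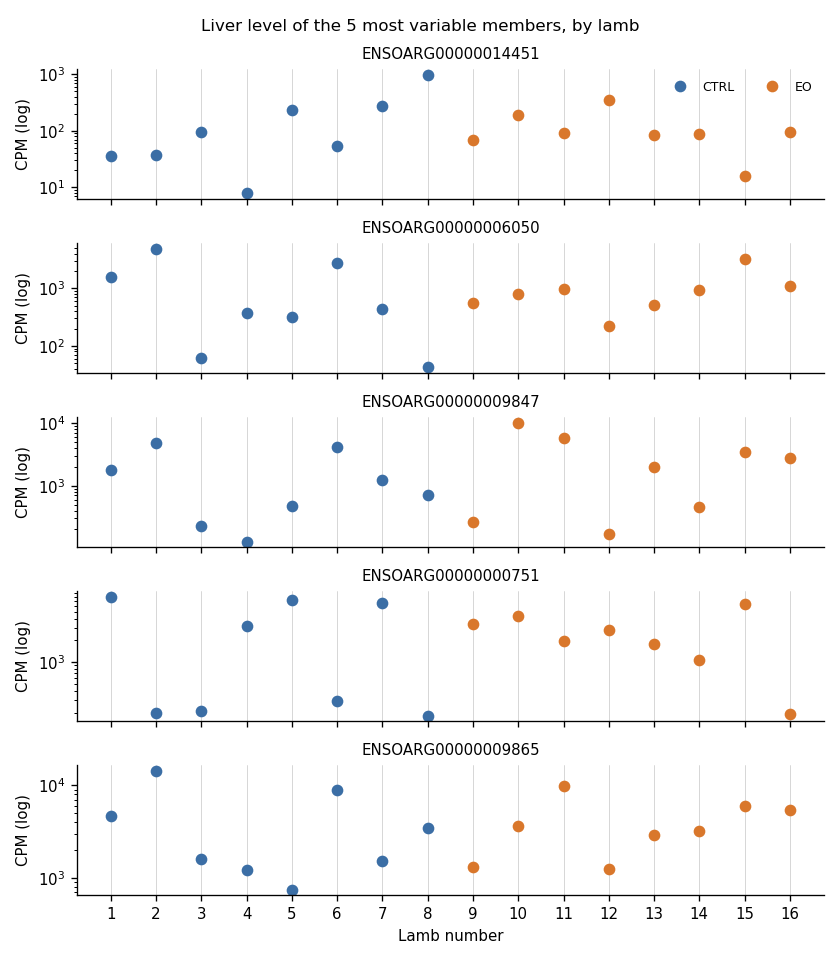
Liver CPM on a log scale for the 5 members with the highest CV, by lamb number. Each point is 1 liver library, coloured by diet. ENSOARG00000006050, ENSOARG00000009847 and ENSOARG00000009865 all lie above their medians in lambs 1, 2, 6, 10, 11, 15 and 16. ENSOARG00000014451 reaches 956 CPM in lamb 8.

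Diet changed no member past the threshold in liver with the sexes pooled. The study fitted sex and its interaction with diet, and reported liver genes changed in males and by that interaction. Opposite responses of the sexes could cancel here, so those reports were not tested. By edgeR, 0 of the 200 members and 0.0% of the 11570 genes passed, and an unadjusted p-value lower than 0.05 was found for 2 members, beside 2.34% of all genes. DESeq2 and limma-voom also called 0 members and 0 of the 11570 genes. The fitted change was higher in EO for 106 members and lower for 94, with a median size of 0.13 on the log2 scale and a median standard error of 0.24. A change was larger than 0.5 in 5 members. No member had CTRL and EO lambs without overlap, which was the case for 0.00864% of the genes kept.

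The 2 members with an unadjusted p-value lower than 0.05 were both lower in EO. ENSOARG00000013943 had 504 CPM in the lowest CTRL lamb, 557 CPM at the median and 796 CPM in the highest, and 375, 522 and 563 CPM in EO lambs. The ranges overlapped, and the fitted change was -0.36 ± 0.17 (SE), with an adjusted p-value of 0.9995 by edgeR. ENSOARG00000014888 had 800, 1584 and 3181 CPM in CTRL and 855, 1079 and 2176 CPM in EO, and its change was -0.64 ± 0.30 (SE), with the same adjusted p-value. The latter gene also followed the share outside genes, with a slope of 0.73 per 10 points, and with that share in the fit its change between diets was -0.33 ± 0.14 (SE; adjusted p-value 0.631 by edgeR). With the share in the fit, 0 members passed and 9 had an unadjusted p-value lower than 0.05, beside 7.68% of all genes.

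The highest gene took 12.1% ± 3.4 of the liver counts in CTRL and 12.1% ± 3.0 in EO (SD, n = 8 each). The difference between the diets did not pass the threshold (two-sided exact permutation test over all splits, p = 0.989).

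In muscle, the members were present as traces. The 16 libraries held 395 to 4758 counts of the 200 genes together, with 52 to 151 of them counted at least once. As a share of the counts on genes this was 0.0112% (exact 95% binomial interval 0.0106% to 0.0118%) in the lowest library, of lamb 16, and 0.0339% (0.0329% to 0.0349%) in the highest, of lamb 15. Both are EO lambs. The filter of 1 CPM in 9 or more libraries was passed by 27 of the 200 members.

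The traces fell on few genes. The most counted gene took 14.7% of all member counts in muscle, the 3 most counted 37.3%, the 10 most counted 67.4% and the 20 most counted 81.6%. ENSOARG00000009438 was the most counted, with 16.1 CPM in the lowest muscle library, 30.6 CPM at the median and 53.8 CPM in the highest, and its mean was 0.726% of its mean liver level. ENSOARG00000003744, the second gene in liver, had 3.28, 15.8 and 98.7 CPM, and ENSOARG00000005384 had 7.14, 18.5 and 53.7 CPM. The steadiest liver member, ENSOARG00000002951, was also among the 5 most counted in muscle, with 10.2, 19.4 and 28.6 CPM.

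Over all members, the mean muscle level was 0.0078% of the mean liver level at the median, with quartiles of 0.0039% and 0.0593%. The rule bounds this percentage from above, so its size follows in part from the choice of members. In all 16 muscle libraries 29 members were counted, and they held 86.8% of the member counts in muscle. Their muscle level was 0.208% of the liver level at the median, beside 0.0061% for the other 171. Of these 29, 12 were among the 50 highest members in liver. Their mean liver level was 1466 CPM at the median, beside 549 CPM for the other 171. For the highest gene of all, ENSOARG00000013782, the muscle mean was 4.33 CPM.

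There was no count in any muscle library for 16 members, whose mean liver levels ranged from 129 to 722 CPM. Over all 131026157 muscle counts, a count of 0 allows a level of up to 0.0229 CPM (3 counts), so the muscle level of these genes was under what this depth could show and is not known to be absent.

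The muscle libraries of CTRL lambs 3, 5 and 7 held ENSOARG00000013782 at 15.4, 17.7 and 16.4 CPM, from 166, 67 and 178 counts. In the other 5 CTRL lambs it ranged from 0.556 to 1.81 CPM, and in the 8 EO lambs from 0 to 4.04 CPM, with no count in lambs 10 and 13. The floor of 3 counts was 1.17 CPM in lamb 10 and 0.62 CPM in lamb 13. The values of the 3 libraries did not overlap with the others. The same 3 libraries had the highest summed level of the 171 members that were not counted in every muscle library, at 61.1, 57.9 and 76.0 CPM, while the other 13 had 14.4 to 31.4 CPM. These 171 include ENSOARG00000013782, and without it the sums were 45.8, 40.2 and 59.6 CPM, beside 13.6 to 27.3 CPM. The 3 libraries did not stand apart in the 29 members counted in every library, with 219, 112 and 195 CPM beside 88.3 to 316 CPM. Of the members, 139, 100 and 151 were counted in them, beside 52 to 110 in the others. Single members that were abundant in liver differed in this. ENSOARG00000003744 had 98.7 CPM in lamb 2 and 45.2 CPM in lamb 15, beside 18.6, 7.41 and 12.7 CPM in lambs 3, 5 and 7. ENSOARG00000000291 was highest in lambs 3 and 7, at 11.7 and 6.53 CPM. Lambs 1 and 12 followed at 6.33 and 6.17 CPM, and lamb 5 had 5.82 CPM. Both genes were counted in all 16 muscle libraries.

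Relative to the liver of the same lamb, the 50 highest members stood at a median of 0.0196%, 0.0182% and 0.0266% in the muscle of lambs 3, 5 and 7. In the other 13 lambs this median was 0% to 0.0086%. The depth of the 3 libraries, from 3779749 to 10870201 counts, and their share outside genes, from 29.3% to 29.9%, lay within the range of the others, whereas non-unique alignments were recorded as 0 in lamb 5 only. Whether RNA from liver reached these libraries was not tested.

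**Figure D5:**
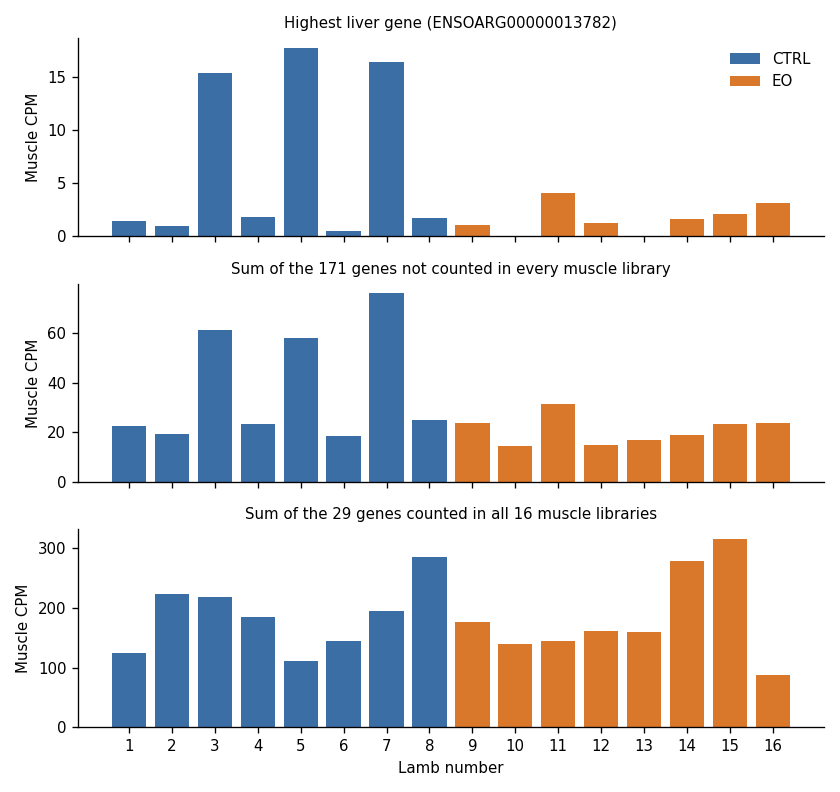
Muscle CPM by lamb for the highest liver gene, for the sum of the 171 members not counted in every muscle library, and for the sum of the 29 counted in all 16. The 171 include the highest liver gene. Bars are single libraries, coloured by diet. Lambs 3, 5 and 7 are highest in the upper and middle panels, at 15.4 to 17.7 CPM and 57.9 to 76.0 CPM, and lie within the others in the lower panel.

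Diet changed 0 of the 27 members tested in muscle, and 0.0% of the 11757 genes tested (edgeR's quasi-likelihood test, with 1 member at an unadjusted p-value lower than 0.05, beside 3.42% of all genes), and DESeq2 also called 0. That member was ENSOARG00000013782. Its fitted change was -1.92 ± 0.73 (SE), with an unadjusted p-value of 0.0158 and an adjusted one of 0.9999 by edgeR. Without the libraries of lambs 3, 5 and 7, its change was 0.48 ± 0.53 (SE). These 3 CTRL libraries had been set apart by their high level of this same gene. The loss of the negative change therefore follows in part from that choice. The mean of the gene in muscle was 7.00 ± 7.89 CPM in CTRL and 1.66 ± 1.41 CPM in EO (SD, n = 8 each). This difference did not pass the threshold (two-sided exact permutation test, p = 0.137). In the remaining 5 CTRL lambs the mean was 1.31 ± 0.52 CPM (SD). Without a filter, 184 members could be tested and 0 passed. Their median change was then -0.67 on the log2 scale, beside -0.0046 over all 19048 genes tested. Without the 3 libraries it was -0.01 over the 160 members that could be tested, beside -0.0062 over 18735 genes. These libraries were set apart by the muscle level of a member, so this shift also follows in part from that choice. Most of these members had under 1 CPM in muscle, so both medians of the members rest on few counts.

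The difference of the diet effect between liver and muscle was tested for all 200 members over the 32 libraries, and 0 passed, as did 0.0% of the 13020 genes (edgeR's quasi-likelihood test of the interaction term). An unadjusted p-value lower than 0.05 was found for 18 members, beside 2.04% of all genes, and for 7 members, beside 3.61% of all genes, without both libraries of lambs 3, 5 and 7. DESeq2 called 0 members and 1 of the 13020 genes. All members passed the filter of this test through liver, where they were chosen to be high, and most had under 1 CPM in muscle. The precision of the test was set by the muscle counts. The 18 and 7 members are therefore not comparable with the shares of all genes.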

How the data were processed

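Liver and muscle RNA of 16 lambs, 8 per diet, was sequenced by the authors in read pairs from poly-A libraries. Per the submitters' processing notes and the paper's methods, reads were trimmed with Trimmomatic 0.33 and aligned with STAR 2.4.0.1 to the sheep genome v.3.1, and HTSeq 0.6.1 gave the counts per Ensembl gene. The counting mode, strand setting and annotation release are not given in the sources used here. The authors deposited raw counts, 1 table per sample with 27054 genes and 5 HTSeq counters, which were kept out of library sizes and tests. Since the counting on strand is not known, overlapping and antisense genes, and near-identical copies, are uncertain.

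Groups, sample numbers and ages were taken from the labels. The members and lists were chosen with earlier results of these data known. CPM was calculated on the counts on genes, and the members were ranked on it. Genes that reached 1 CPM in 9 or more of 16 libraries of a tissue entered the quasi-likelihood fit of edgeR 4.0.16 (R 4.3.3), after TMM scaling. Benjamini-Hochberg adjustment ran over all genes fitted, and 0.05 was the threshold. As alternatives, DESeq2 1.42.0, voom in limma 3.58.1, further filters, scalings and covariates, and the omission of each lamb were run. The fits of diet in each tissue and of the share in liver were tested on simulated counts, and the other fits were not. Single values were compared by exact permutation over all splits of the lambs, and correlations over 16 lambs with 100000 permutations (Python 3.11.15, SciPy 1.17.1).

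Liver and muscle samples with the same number were taken as 1 lamb, since diet and age match for all 16 numbers. Deviations from group means correlated between these tissues by -0.22 to 0.43, over 0.1 in 7 of 16 pairs. None of the 112 pairs of libraries of a group were identical, and the lowest chi-square per degree of freedom was 4.98. Nothing gives the sex of single lambs, so the sex terms of the authors' model were not fitted.

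The RefSeq table used for names holds 0 Ensembl identifiers in 35057 entries, so 0 of 200 members were matched. The lists of genes by symbol, the marker check and the sequences were therefore left out. The naming rule took the members highest by liver level, ratio and muscle level, those at the threshold, those most and least variable, and those with the smallest p-values. Because the identifiers carry no names, only the leading members of each part are printed, with ENSOARG00000000751, ENSOARG00000005384 and ENSOARG00000008456 described in the fit of the share as members already named for variability or level.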

Additional observations from a re-analysis of the deposited data

Results flagged for a closer look

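Within a group of 8 libraries, a value was set apart when its gap to the nearest other value, divided by the range of the group, was above Dixon's 95% critical value for 8. The libraries' summed values and the named members gave 74 such groups, and 5 values were set apart. For normal values of genes picked without regard to spread, about 1 in 20, or 3.7, would be set apart. Some named members were picked for a high CV, so 3.7 is not a valid expectation for these groups. In liver, ENSOARG00000014451 had 956 CPM in CTRL lamb 8 and ENSOARG00000006050 had 3177 CPM in EO lamb 15. In muscle, ENSOARG00000003744 had 98.7 CPM in CTRL lamb 2, ENSOARG00000000291 had 11.7 CPM in CTRL lamb 3, and ENSOARG00000016733 had 1.24 CPM in EO lamb 11, which is 4 counts.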

How the results depend on the processing

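Of 322 recomputed values, 311 kept their direction and their side of the threshold or stayed within the spread or within 1.5 times a count. The list kept 163 of its 200 genes with 10 CPM added in place of 1, 171 with 0.1 CPM, and 193 to 200 under the other alternatives. The liver share of the members was 33.9% of all uniquely aligned fragments in place of 50.9% of counts on genes, a larger denominator. Calls with the share outside genes were 59 in place of 119 without the 5 libraries over 40% (25 rising and 34 falling, or 29.5% in place of 59.5% of the members, beside 28.7% in place of 62.7% of all genes), with fewer samples and a narrower range, and 29 rising in EO lambs alone. Leaving out 1 lamb gave 110 to 125 calls. Tests of diet called 0 members under every alternative run, the replicate block by lamb number included, which was run for diet by tissue, with 0 of 200 called. Over all genes they also called 0, except for 1 of 13020 by DESeq2 for diet by tissue. Omitting lambs 3, 5 and 7 was chosen after seeing the data, like the exclusion of libraries over 40%. The difference of EO minus CTRL for the highest gene then turned from -0.024 to 1.13 points of liver counts. In muscle it turned from -5.34 to 0.35 CPM. Neither was past the threshold (exact permutation test, p = 0.516 and p = 0.629). These lambs were set apart by the muscle level of this same gene, so the turn in muscle follows in part from the choice. The annotation's Ensembl identifiers without symbols, the unknown sex of the lambs and muscle levels under 1 CPM limit what can be read from the members.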
